A study of Homo sapiens with 8 samples.

Results

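The 10 genes described here are the inhibitors of DNA binding *ID1*, *ID2*, *ID3* and *ID4*, the SMAD genes *SMAD6*, *SMAD7* and *SMAD9*, the ligand *BMP4*, the decoy receptor *BAMBI* and the matrix Gla protein gene *MGP*, out of 22428 genes that the array names. They were found by symbol, and each was read at its brightest probe, by mean signal across the 8 arrays. *ID1* had been picked because it was higher with simvastatin than with L-778123 in OVSAHO cells and not in KURAMOCHI cells, and *MGP* because it was higher in both lines, so the drug values of these genes are given as a description, with no test. Total RNA was hybridized to 1-color SurePrint G3 Human Gene Expression arrays, 2 each for OVSAHO with simvastatin, OVSAHO with L-778123, KURAMOCHI with simvastatin and KURAMOCHI with L-778123. OVSAHO and KURAMOCHI are established cell lines of human ovarian cancer. Simvastatin inhibits HMG-CoA reductase, the enzyme that commits cells to the mevalonate pathway, and L-778123 inhibits both farnesyl transferase and geranylgeranyl transferase, which attach lipids made in that pathway to proteins. The study set these drugs side by side to find genes whose regulation by simvastatin differed from that by the prenylation inhibitor. Cells without drug were not analysed here, so a drug difference cannot be assigned to either drug. The concentrations and times of these cultures are not given in the sources used here. Nor do the sources say whether replicate arrays came from separate cultures, so the p-values measure the spread between these arrays, which may be technical. In RNA of whole cultures, fewer cells that express a gene and less RNA per cell cannot be told apart.

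Bone morphogenetic proteins (BMPs) and transforming growth factor β (TGF-β) bind paired serine/threonine kinase receptors, which phosphorylate receptor-activated SMAD proteins. These join SMAD4, enter the nucleus and switch on target genes. The ID genes are classic immediate targets of BMP, and their proteins hold E proteins away from DNA and so keep cells undifferentiated. Several other targets feed back on the pathway: SMAD6 and SMAD7 block the receptors or their SMADs, BAMBI is a receptor without a kinase, and SMAD9 is a weakly active BMP SMAD that dampens the signal. MGP is a secreted protein that binds BMP ligands and, once γ-carboxylated, inhibits calcification. In ovarian cancer the ID genes and the BMP pathway are studied in proliferation, spread and drug response.

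RefSeq promoters (GRCh38.p14) were matched for 9 of the 10 genes. The 250 bases before the start site are printed below for genes that show the different layouts: *ID1* and *ID3*, whose difference between drugs was seen mainly in OVSAHO, *SMAD9*, which was higher with simvastatin in both lines, *SMAD6*, which was lower with simvastatin in OVSAHO, and *BAMBI*, which was lower in both lines by less than 2-fold. Capitals mark matches, on either strand, to GGCGCC and GGAGCC (other strand GGCTCC), GC-rich elements known to bind SMAD1 and SMAD5, and to CAGAC (other strand GTCTG), an element known to bind SMAD3 and SMAD4. No match overlapped another.
ID1, chr20:31605039-31605288, plus strand: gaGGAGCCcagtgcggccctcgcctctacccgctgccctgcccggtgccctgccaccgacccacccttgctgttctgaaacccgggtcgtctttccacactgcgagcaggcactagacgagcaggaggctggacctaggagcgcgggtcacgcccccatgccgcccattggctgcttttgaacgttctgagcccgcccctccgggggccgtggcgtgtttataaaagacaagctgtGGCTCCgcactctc
ID3, chr1:23559502-23559751, minus strand: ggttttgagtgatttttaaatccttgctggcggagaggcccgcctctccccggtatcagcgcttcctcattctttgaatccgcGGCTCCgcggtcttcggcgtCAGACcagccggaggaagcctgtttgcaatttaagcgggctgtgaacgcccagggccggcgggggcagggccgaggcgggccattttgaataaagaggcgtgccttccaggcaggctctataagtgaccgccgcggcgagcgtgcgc
SMAD9, chr13:36920239-36920488, minus strand: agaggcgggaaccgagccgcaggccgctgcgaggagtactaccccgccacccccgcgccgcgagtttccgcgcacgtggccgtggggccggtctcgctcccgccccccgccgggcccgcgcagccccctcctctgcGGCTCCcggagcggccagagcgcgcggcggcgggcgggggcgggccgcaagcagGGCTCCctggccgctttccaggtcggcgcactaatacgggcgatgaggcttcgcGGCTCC
SMAD6, chr15:66701986-66702235, plus strand: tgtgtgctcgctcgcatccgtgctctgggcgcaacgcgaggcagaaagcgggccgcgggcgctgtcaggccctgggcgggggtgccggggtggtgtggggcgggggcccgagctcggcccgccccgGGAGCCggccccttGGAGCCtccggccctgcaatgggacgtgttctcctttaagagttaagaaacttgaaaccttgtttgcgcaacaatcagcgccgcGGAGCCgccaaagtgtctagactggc
BAMBI, chr10:28677271-28677520, plus strand: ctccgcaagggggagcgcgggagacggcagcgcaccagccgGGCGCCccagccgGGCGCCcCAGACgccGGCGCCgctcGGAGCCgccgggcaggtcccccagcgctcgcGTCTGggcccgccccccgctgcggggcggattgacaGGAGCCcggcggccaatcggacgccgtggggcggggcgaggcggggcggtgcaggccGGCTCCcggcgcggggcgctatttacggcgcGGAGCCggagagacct

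The *ID1* window held 2 matches to GGAGCC, at its far end and close to the start site. The *SMAD9* and *SMAD6* windows, whose genes differed between the drugs in opposite directions in OVSAHO, each held 3 matches to GGAGCC. The *BAMBI* window held 3 matches to GGCGCC, 4 to GGAGCC and 2 to CAGAC, and *ID3* held 1 to GGAGCC and 1 to CAGAC. *ID2* had no match to any of these motifs in its window. Among 35116 promoter windows of the same length, 16.4% held GGCGCC, 30.6% held GGAGCC and 38% held CAGAC, so the letters are common and a match is not a binding site. These shares count windows with any match and were not matched for base composition. The printed windows were 62% (*ID3*) to 81.2% (*BAMBI*) G and C, beside a median of 58% over all windows.

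Levels are log2 intensities from which the array's own 75th percentile, an intensity of 324 to 437, was subtracted, so a level of 0 is the signal of that percentile. Replicate arrays correlated at 0.995 to 0.996, and 51.8% to 57.5% of 58162 probes were well above background. All 10 genes were well above background on all 8 arrays at the probe read, and no spot was saturated. All 12 markers of ovarian serous carcinoma were well above background on all 8 arrays, among them *PAX8* and *WT1*. Of 6 fibroblast markers, *COL1A2*, *DCN* and *LUM* were not well above background on any array, and the list summed to between -3.6 and -3.21 on the OVSAHO arrays and to between 1.28 and 1.71 on the KURAMOCHI arrays. The leukocyte markers *PTPRC* and *CD14* were above background on all 8 arrays, and the summed level of the 3 leukocyte markers with a probe ranged from -1.16 to -0.65. The 4 endothelial markers summed to -2.16 to -1.92 in OVSAHO with simvastatin and -0.24 to -0.16 in OVSAHO with L-778123, with *VWF* at -3.88 and -0.58 as group means. *VWF* and *CDH5* were well above background on all 8 arrays, *KDR* on 2 and *PECAM1* on none. The part of these markers in the results below was not tested. The arrays shared 1 slide on which each group had its own positions, and position cannot be told apart from group.

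In OVSAHO cells, *ID2*, *ID3* and *SMAD9* were higher with simvastatin than with L-778123 and *SMAD6* was lower, by 2.27-fold to 4.25-fold. A gene was called where limma gave an adjusted p below 0.05 (Benjamini-Hochberg over 33753 probes) and the drugs differed at least 2-fold. Of the 8 genes not chosen for their drug values, 4 were called in OVSAHO, 3 higher and 1 lower, where 11.6% of 16955 genes were called, 5.69% higher and 5.88% lower. In KURAMOCHI cells 1 of the 8, *SMAD9*, was called, and it was higher, where 5.38% of all genes were called, 2.44% higher and 2.94% lower. Without the fold threshold, 7 of the 8 passed in OVSAHO (53.9% of all genes) and 7 of the 8 in KURAMOCHI (35.4% of all genes), with *BMP4* as the exception in both. The median difference of the 8 genes was 0.43 in OVSAHO and 0.53 in KURAMOCHI on the log2 scale, and the median of all genes was 0.014 and 0.012.

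**Figure D1:**
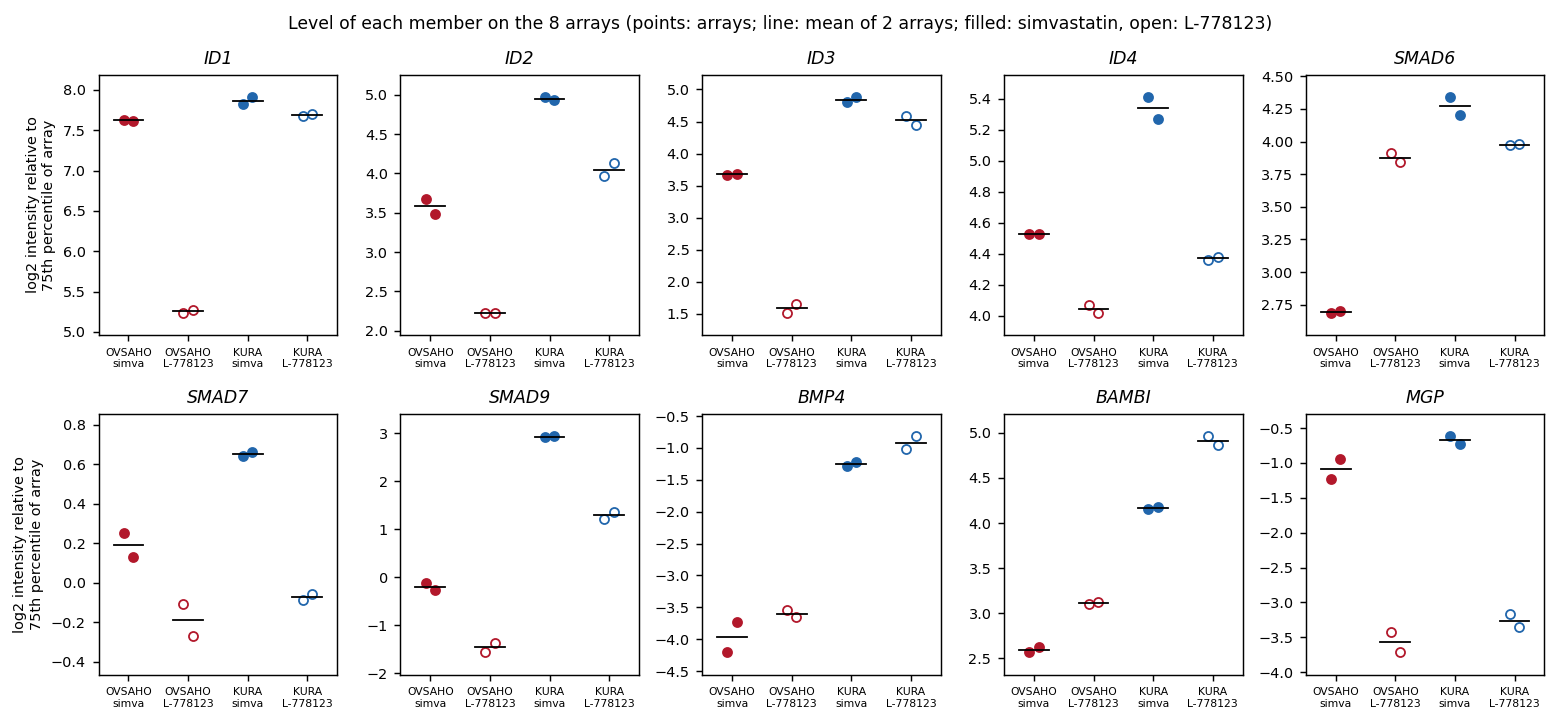
Level of each gene on each of the 8 arrays (log2 intensity relative to the 75th percentile of the array, 1 panel per gene with its own axis). Points are arrays, horizontal lines are means of 2 arrays, filled points are simvastatin, open points are L-778123, and KURA stands for KURAMOCHI. *ID1* stood at 7.62 to 7.91 on 6 arrays and at 5.24 and 5.27 in OVSAHO with L-778123.

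The ID genes encode helix-loop-helix proteins that lack a DNA-binding region. *ID1* (probe A_23_P252306) measured 7.63 and 7.62 in OVSAHO with simvastatin and 5.24 and 5.27 in OVSAHO with L-778123, against 7.82 and 7.91 in KURAMOCHI with simvastatin and 7.68 and 7.7 in KURAMOCHI with L-778123. OVSAHO with L-778123 was the group that stood apart, while the other 3 groups lay between 7.62 and 7.91. The difference between drugs was 2.37 in OVSAHO, a 5.15-fold higher level with simvastatin, and 0.18 in KURAMOCHI. These are the values for which *ID1* was picked.

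*ID3* showed a similar layout without having been picked for it by the stated rule. It measured 3.67 and 3.68 in OVSAHO with simvastatin and 1.52 and 1.66 in OVSAHO with L-778123, against 4.8 and 4.88 in KURAMOCHI with simvastatin and 4.59 and 4.45 in KURAMOCHI with L-778123. OVSAHO with L-778123 was again lowest and none of the groups overlapped. *ID3* was 4.25-fold higher with simvastatin in OVSAHO (log2 difference 2.09 ± 0.0788 SE, adjusted p = 3.76e-05), and its difference in KURAMOCHI was 0.32 (adjusted p = 0.0282), below the fold threshold. The drug difference itself was larger in OVSAHO than in KURAMOCHI by 1.76 ± 0.111 (SE, adjusted p = 0.000686).

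*ID2* was higher with simvastatin in both lines. It measured 3.68 and 3.49 in OVSAHO with simvastatin, 2.23 on both arrays of OVSAHO with L-778123, 4.97 and 4.93 in KURAMOCHI with simvastatin and 3.97 and 4.13 in KURAMOCHI with L-778123. Every simvastatin array of a line lay above its L-778123 arrays. The log2 difference was 1.35 ± 0.0902 (SE) in OVSAHO (2.55-fold, adjusted p = 0.000185) and 0.9 ± 0.0902 in KURAMOCHI (1.87-fold, adjusted p = 0.00162), the latter short of the fold threshold. A second *ID2* probe gave 1.17 in OVSAHO and 0.88 in KURAMOCHI. The difference between the lines was 0.45 at the probe read, with a 95% interval of 0.13 to 0.76 and an adjusted p of 0.056, and 0.28 at the second probe (adjusted p = 0.0465), so the probes fell on either side of the threshold.

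*ID4*, the ID gene whose protein can oppose the others, had its larger drug difference in KURAMOCHI. It measured 4.53 on both arrays of OVSAHO with simvastatin, 4.07 and 4.02 in OVSAHO with L-778123, 5.41 and 5.27 in KURAMOCHI with simvastatin and 4.36 and 4.38 in KURAMOCHI with L-778123. The log2 difference was 0.48 in OVSAHO (adjusted p = 0.0023) and 0.97 in KURAMOCHI (1.96-fold, adjusted p = 0.000511), and neither reached a fold of 2. In KURAMOCHI the value lay so close to that limit that it was called, at 1.06, after quantile normalization, at 1.07 in the authors' processed values, and at 1.04 without KURAMOCHI simvastatin replicate 2. The drug difference was smaller in OVSAHO by 0.49, a value of -0.49 (adjusted p = 0.0173).

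**Figure D2:**
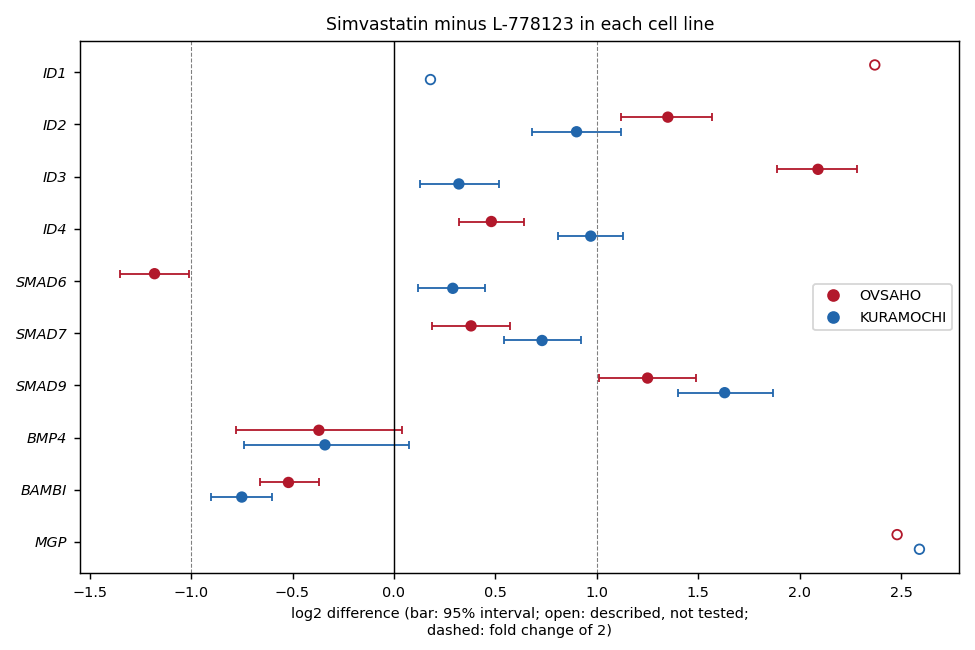
Difference between simvastatin and L-778123 (log2, x axis) for each gene (y axis) in OVSAHO (red) and KURAMOCHI (blue), with 95% intervals from limma for the tested genes and dashed lines at a fold change of 2. Open points without an interval are *ID1* and *MGP*, which were chosen for these values. *SMAD6* lay at -1.18 in OVSAHO and 0.29 in KURAMOCHI.

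The inhibitory SMAD genes parted from each other. *SMAD6*, which preferentially blocks BMP receptors, measured 2.69 and 2.7 in OVSAHO with simvastatin and 3.91 and 3.84 in OVSAHO with L-778123, against 4.34 and 4.2 in KURAMOCHI with simvastatin and 3.97 and 3.98 in KURAMOCHI with L-778123. OVSAHO with simvastatin was the lowest group, and the other 3 groups lay between 3.84 and 4.34. *SMAD6* was 2.27-fold lower with simvastatin in OVSAHO (log2 difference -1.18 ± 0.0676 SE, adjusted p = 0.000112), and in KURAMOCHI its difference was 0.29 (adjusted p = 0.0258), in the other direction and under the fold threshold. The contrast between the lines was -1.47 ± 0.0956 (SE, adjusted p = 0.000736).

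*SMAD7*, which blocks both TGF-β and BMP receptors, differed less between the drugs. It measured 0.25 and 0.13 in OVSAHO with simvastatin, -0.11 and -0.27 in OVSAHO with L-778123, 0.64 and 0.66 in KURAMOCHI with simvastatin and -0.089 and -0.059 in KURAMOCHI with L-778123. The simvastatin arrays of each line lay above its L-778123 arrays. The log2 difference was 0.38 in OVSAHO (adjusted p = 0.00948) and 0.73 in KURAMOCHI (1.66-fold, adjusted p = 0.0019), with neither at a fold of 2. The contrast between the lines was -0.35, with a 95% interval of -0.61 to -0.076 and an adjusted p of 0.074.

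*SMAD9* was the gene called in both lines. It measured -0.13 and -0.28 in OVSAHO with simvastatin, -1.56 and -1.37 in OVSAHO with L-778123, 2.92 and 2.93 in KURAMOCHI with simvastatin and 1.22 and 1.36 in KURAMOCHI with L-778123. The lines stood well apart, and within each line the simvastatin arrays were the higher. *SMAD9* was 2.38-fold higher with simvastatin in OVSAHO (log2 difference 1.25 ± 0.096 SE, adjusted p = 0.000295) and 3.11-fold higher in KURAMOCHI (1.63 ± 0.096 SE, adjusted p = 0.000343). A second *SMAD9* probe gave 1.32 and 1.59. The contrast between the lines was -0.38, with a 95% interval of -0.72 to -0.046 and an adjusted p of 0.0999.

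*BAMBI*, a pseudoreceptor that dampens TGF-β and BMP signals, was lower with simvastatin in both lines by less than 2-fold. It measured 2.57 and 2.62 in OVSAHO with simvastatin, 3.1 and 3.12 in OVSAHO with L-778123, 4.15 and 4.18 in KURAMOCHI with simvastatin and 4.96 and 4.87 in KURAMOCHI with L-778123. Within each line the simvastatin arrays were the lower. The log2 difference was -0.52 in OVSAHO (1.43-fold, adjusted p = 0.00126) and -0.75 in KURAMOCHI (1.68-fold, adjusted p = 8e-04), and the contrast between the lines was 0.23 (95% interval 0.023 to 0.44, adjusted p = 0.106).

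The ligand *BMP4* showed no difference between the drugs that passed the test. Its signal in OVSAHO was close to the lowest that counted as well above background, which lay between -5.13 and -4.34 over the arrays. It measured -4.2 and -3.73 in OVSAHO with simvastatin, -3.54 and -3.66 in OVSAHO with L-778123, -1.28 and -1.22 in KURAMOCHI with simvastatin and -1.01 and -0.82 in KURAMOCHI with L-778123. The OVSAHO simvastatin arrays differed from each other by more than the groups differed. The log2 difference was -0.37 in OVSAHO (95% interval -0.78 to 0.039, adjusted p = 0.116) and -0.34 in KURAMOCHI (-0.74 to 0.073, adjusted p = 0.178). The contrast between the lines was -0.033, with an interval of -0.61 to 0.54 (adjusted p = 0.935).

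*MGP* was higher with simvastatin in both lines, the pattern for which it was picked. It measured -1.23 and -0.95 in OVSAHO with simvastatin, -3.43 and -3.71 in OVSAHO with L-778123, -0.62 and -0.73 in KURAMOCHI with simvastatin and -3.17 and -3.35 in KURAMOCHI with L-778123. All 4 simvastatin arrays lay above all 4 L-778123 arrays. The log2 difference was 2.48 in OVSAHO (5.59-fold) and 2.59 in KURAMOCHI (6.01-fold), and a second *MGP* probe, which was well above background on 7 of the 8 arrays, gave 2.56 and 2.27. Under normexp background correction the differences were 1.56 and 1.68.

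Between the lines, the 10 genes were lower in OVSAHO than in KURAMOCHI. Averaged over both drugs, *ID2*, *ID3*, *SMAD9*, *BMP4* and *BAMBI* were called lower in OVSAHO, 5 of the 9 genes other than *ID1*, where 16.4% of all genes were called lower and 34.8% in either direction. *ID1* (-1.34) is left out of that count, because its value rests on the OVSAHO L-778123 arrays that served to pick it, and it would make 6 of 10. The differences of the 9 were all below 0, as was that of *ID1*, where 51.3% of all genes lay above 0. The 9 had an adjusted p under 0.05 at the probe read, where 82.9% of all genes passed that threshold, while the second *MGP* probe differed by -0.45 (95% interval -0.99 to 0.089, adjusted p = 0.105). The median difference of the 9 was -1.59 on the log2 scale, beside 0.028 for all genes.

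*SMAD9* was 7.69-fold lower in OVSAHO (log2 difference -2.94 ± 0.0679 SE, adjusted p = 4.72e-07), and *BMP4* was 6.5-fold lower (-2.7 ± 0.116 SE, adjusted p = 4.4e-06). With normexp background correction the *BMP4* value was -1.4. *ID3* was 4.13-fold lower (-2.05 ± 0.0557 SE, adjusted p = 8.05e-07). *BAMBI* differed by -1.69 (adjusted p = 6.15e-07) and *ID2* by -1.59 (adjusted p = 3.27e-06). *SMAD6* (-0.84), *ID4* (-0.57), *MGP* (-0.36) and *SMAD7* (-0.29) passed the adjusted p and not the fold threshold. The summed fibroblast markers also differed between the lines, as given above, through *COL3A1* (-6.51 and -6.86 against 1.15 and 1.54 as group means) and *COL1A1*, and their part in these differences was not tested.

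The gap between the lines depended on the drug for some of these genes, in comparisons that share their arrays with those of the drugs. With simvastatin, 6 of the 8 tested genes were called lower in OVSAHO (17.3% of all genes), and with L-778123 5 of the 8 were (16.3% of all genes). *SMAD6* differed by -1.57 with simvastatin (adjusted p = 7.94e-06) and by -0.1 with L-778123 (95% interval -0.27 to 0.065, adjusted p = 0.223). *ID3* differed by -1.16 with simvastatin (adjusted p = 4.46e-05) and by -2.93 with L-778123 (adjusted p = 1.8e-06). The test of these changes is the contrast of the drug differences given above for each gene, of which *ID3* and *SMAD6* were called, 2 of 8 genes, 1 higher and 1 lower, beside 7.58% of all genes, 4.29% higher and 3.3% lower. With *ID4*, 3 of the 8 had an adjusted p under 0.05, beside 27.4% of all genes. *SMAD9* (-3.13 and -2.75), *BMP4* (-2.72 and -2.68) and *BAMBI* (-1.57 and -1.81) were lower in OVSAHO with either drug. *ID1*, as a description, differed by -0.24 with simvastatin and by -2.43 with L-778123.

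**Figure D3:**
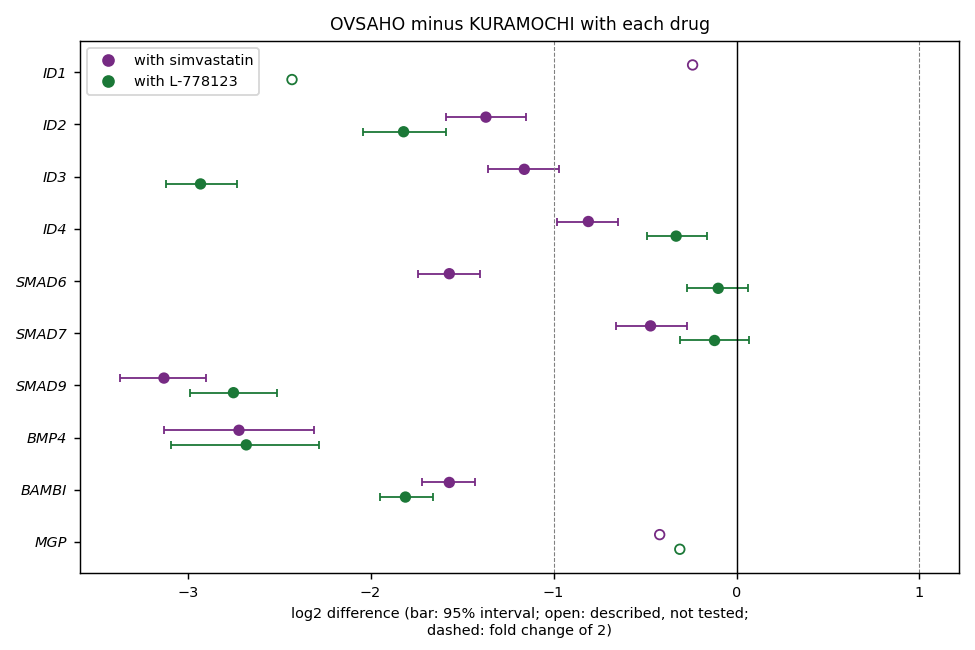
Difference between OVSAHO and KURAMOCHI (log2, x axis) for each gene (y axis) with simvastatin (purple) and with L-778123 (green), with 95% intervals from limma for the tested genes and dashed lines at a fold change of 2. Open points without an interval are *ID1* and *MGP*. All points lie below 0, and *ID1*, *ID3* and *SMAD6* are the genes whose points lie farthest apart.

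The rest of the pathway was read from 10 hand-written lists of 101 genes by role, of which 82 were tested. In OVSAHO 11 were called higher and 7 lower with simvastatin, 22% of those tested beside 11.6% of all genes. In KURAMOCHI 6 were called higher and 4 lower, 12.2% beside 5.38%. These counts varied with the processing: 11 genes were called in OVSAHO with normexp background correction, and 3 of the 62 genes well above background on all 8 arrays were called in KURAMOCHI. The methods' analysis of variance called 4 in KURAMOCHI. The share of all genes was not taken under these settings, so these counts stand without that comparison. Among the 6 higher and 4 lower in KURAMOCHI, *FST*, *SOST*, *SOSTDC1*, *LEFTY2*, *PMEPA1*, *MSX2* and *ANGPTL4* were not well above background on all 8 arrays. The median difference was 0.093 in OVSAHO and 0.11 in KURAMOCHI, and the drug difference itself was called to differ between the lines for 15 genes, 18.3% beside 7.58%. Those 15 include *SOST*, *LEFTY2* and *MSX2*, which were not well above background in OVSAHO and entered the test only through KURAMOCHI. They also include *FST*, not well above background in OVSAHO with simvastatin. The share is no firm result for these genes.

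Of 6 BMP ligands tested, *BMP6* was called in OVSAHO (11.6% of all genes) and none was called in KURAMOCHI (5.38%). *BMP6*, a BMP that also controls iron balance, measured -2.78 and -2.79 with simvastatin and -0.77 and -0.8 with L-778123 in OVSAHO, a log2 difference of -2 ± 0.0641 (SE, 4-fold lower, adjusted p = 2.65e-05). In KURAMOCHI all 4 arrays lay between 3.04 and 3.45, and the contrast between the lines was -1.67 (adjusted p = 0.000468). The TGF-β, activin and nodal ligands had 3 of 7 called higher in OVSAHO (5.69% of all genes) and none in KURAMOCHI (2.44%). For lists this short, no call in KURAMOCHI is near the share of all genes. *TGFB2* was 4.05-fold higher with simvastatin in OVSAHO (2.02 ± 0.0879 SE, adjusted p = 5.45e-05), and its difference in KURAMOCHI was 0.074, with a contrast of 1.94 between the lines (adjusted p = 0.000703). *TGFB1* differed by 1.79 in OVSAHO (adjusted p = 0.00233) on arrays that spread from -2.44 to -1.64 with simvastatin. In KURAMOCHI *TGFB1* differed by 0.89 (1.85-fold, adjusted p = 0.041), and its contrast between the lines, 0.9, did not pass (adjusted p = 0.121). *INHBB*, the activin B subunit, had a contrast of 1.04 between the lines (adjusted p = 0.00165), from 1.76 in OVSAHO and 0.72 in KURAMOCHI (adjusted p = 0.00112).

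Of 15 receptors and coreceptors, 1 was called in OVSAHO (6.67%, beside 11.6% of all genes) and none in KURAMOCHI (beside 5.38%). *ACVRL1*, the type I receptor ALK1, was 2-fold higher with simvastatin in OVSAHO (log2 difference 1 ± 0.135 SE, adjusted p = 0.00221) and was not well above background in KURAMOCHI. Its estimate lay at the fold limit, with a 95% interval of 0.67 to 1.34. *BMPR1B* had a contrast of -1.12 between the lines (adjusted p = 0.00196), from -0.76 in OVSAHO and 0.37 in KURAMOCHI. None of the 5 receptor-activated and common SMADs was called in either line, with differences from -0.58 for *SMAD3* to 0.39 for *SMAD4* in OVSAHO and from -0.24 to 0.39 in KURAMOCHI, although *SMAD3* (0.00238) and *SMAD4* (0.00331) had an adjusted p under 0.05 in OVSAHO.

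The secreted antagonists, which bind ligands outside the cell, held several large differences. In OVSAHO 1 of 12 was called higher (5.69% of all genes) and 3 lower (5.88%). In KURAMOCHI likewise 1 was called higher (2.44%) and 3 lower (2.94%). The lower calls in OVSAHO include *SOSTDC1*, which passed on its measured signal and has a bound under 2-fold. *FST*, which encodes follistatin, measured -1.28 and -1.4 in OVSAHO with L-778123 and was not well above background with simvastatin, so that it was at least 9.58-fold lower with simvastatin (adjusted p = 0.000497). *SOSTDC1*, a BMP and WNT antagonist, was 8.11-fold lower with simvastatin in KURAMOCHI (0.47 and 0.33 against 3.46 and 3.38, adjusted p = 0.000421) and at least 1.76-fold lower in OVSAHO, where it was not well above background with simvastatin (adjusted p = 0.000413). *SOST*, which encodes sclerostin, was 6.09-fold lower in KURAMOCHI (adjusted p = 0.0112), with levels of -2.58 and -2.92 against -0.2 and -0.091. *LEFTY1*, an antagonist of nodal, was 2.33-fold higher with simvastatin in OVSAHO (adjusted p = 7.7e-05) and 1.51-fold higher in KURAMOCHI (adjusted p = 0.00172), under the fold threshold. *LEFTY2* was 5.17-fold higher in KURAMOCHI (adjusted p = 0.00575). *SOST* and *LEFTY2* were not well above background in OVSAHO, and the contrasts between the lines of *SOST* and *FST* are not given for that reason.

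Of 11 intracellular negative regulators, *PMEPA1* was called in both lines and no other gene in either. That is 9.09% in each line, beside 11.6% of all genes in OVSAHO and 5.38% in KURAMOCHI. *PMEPA1* is a TGF-β target whose product keeps SMAD2 and SMAD3 from their receptor. It measured -1.94 and -2.29 with simvastatin and -5.21 and -4.28 with L-778123 in OVSAHO, and -0.54 and -0.61 against -2.38 and -2.27 in KURAMOCHI. It was 6.2-fold higher with simvastatin in OVSAHO (2.63 ± 0.298 SE, adjusted p = 0.00116), where 1 of the L-778123 arrays was not well above background, and 3.36-fold higher in KURAMOCHI (adjusted p = 0.00897).

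Of 7 other BMP target genes, 2 were called higher in OVSAHO (5.69% of all genes) and 3 in KURAMOCHI (2.44%). None was called lower (5.88% and 2.94% of all genes), which for a list this short is near the share. *ATOH8*, a helix-loop-helix factor, measured 1.05 and 1 with simvastatin against -0.98 and -0.83 in OVSAHO, and 2.41 and 2.42 against 0.81 and 0.86 in KURAMOCHI, which made it 3.82-fold (adjusted p = 3.36e-05) and 2.99-fold (adjusted p = 0.000189) higher. *HEY1*, a Notch and BMP target, was 2.89-fold higher in OVSAHO (adjusted p = 0.00014), with a contrast between the lines of 1.17 (adjusted p = 0.0036). *MSX2*, a homeobox gene, was 5.16-fold higher in KURAMOCHI (adjusted p = 0.000349) and not well above background in OVSAHO, so its contrast between the lines is not given.

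The TGF-β target genes were mixed, with 3 higher and 3 lower of 13 in OVSAHO and 1 each way in KURAMOCHI. Of all genes, 5.69% were called higher and 5.88% lower in OVSAHO, and 2.44% and 2.94% in KURAMOCHI. *CCN2*, the connective tissue growth factor, was 12.4-fold lower with simvastatin in OVSAHO (-3.63 ± 0.215 SE, adjusted p = 0.000124) and 3.47-fold lower in KURAMOCHI (-1.79, adjusted p = 0.00285), with a contrast of -1.84 (adjusted p = 0.0113). *TGM2*, a transglutaminase, was 3.98-fold lower in OVSAHO (adjusted p = 9.71e-05) and differed by -0.79 in KURAMOCHI (adjusted p = 0.00447), under the fold threshold. *JUNB* was 3.78-fold higher in OVSAHO (adjusted p = 2.43e-05) and differed by 0.99 in KURAMOCHI. *BHLHE40*, a circadian repressor, was 3.67-fold higher in OVSAHO (adjusted p = 5.2e-05), with a contrast of 1.66 (adjusted p = 0.000808), and *ANGPTL4* was 6.58-fold higher in KURAMOCHI (adjusted p = 0.0191) and not well above background in OVSAHO.

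None of the 3 E proteins that ID proteins bind was called in OVSAHO (11.6% of all genes) or in KURAMOCHI (5.38%). *TCF4* differed by -0.71 in OVSAHO (adjusted p = 0.000363) and by 0.18 in KURAMOCHI (adjusted p = 0.062), and *TCF3* by 0.33 and 0.4 (adjusted p = 0.0131 and 0.0117). None of the 3 genes of the γ-carboxylation that MGP needs was called. *GGCX*, the carboxylase, differed by -0.74 in OVSAHO (adjusted p = 0.000732) and by -0.11 in KURAMOCHI (adjusted p = 0.29).

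**Figure D4:**
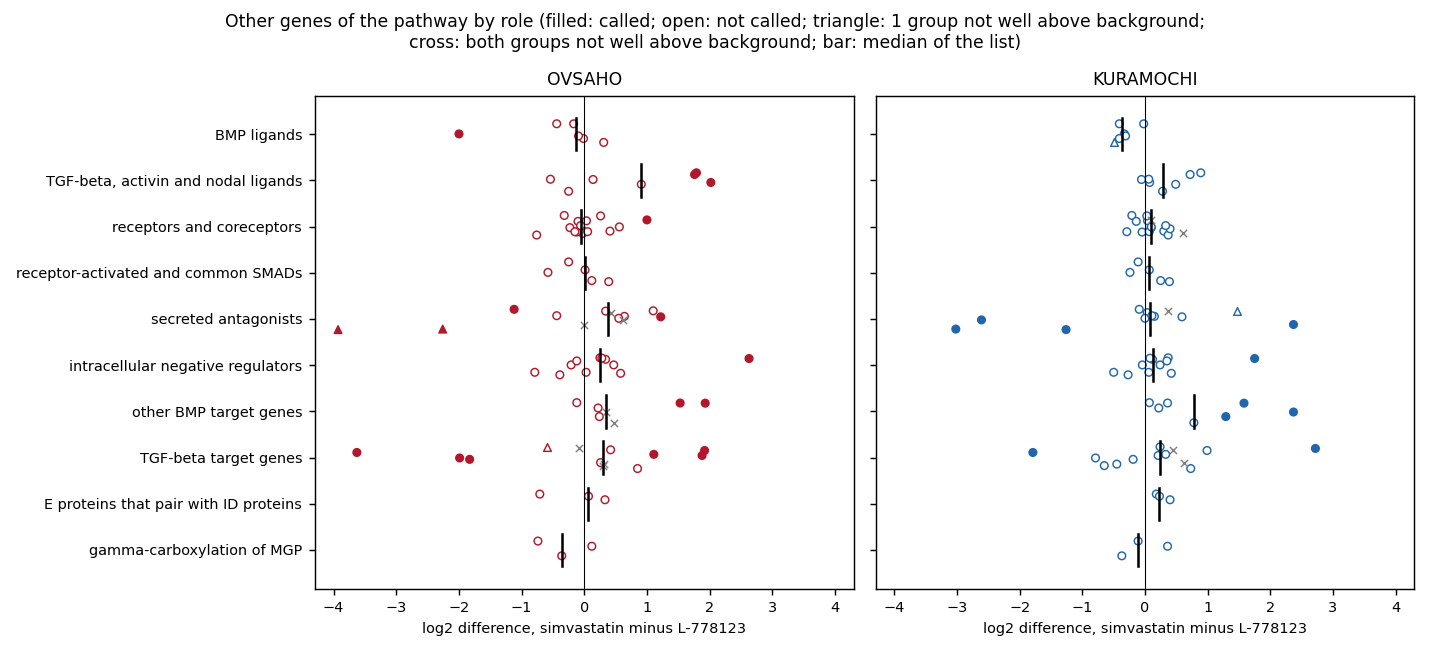
Difference between simvastatin and L-778123 (log2, x axis) of the 82 other pathway genes in OVSAHO (left) and KURAMOCHI (right), grouped by role (y axis). Filled symbols were called, triangles have a single group not well above background, crosses have neither group well above background, and bars are list medians. *CCN2* at -3.63 in OVSAHO and *PMEPA1* at 2.63 in OVSAHO and 1.75 in KURAMOCHI are among the genes farthest from 0.

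The genes whose levels ran closest to *ID1* and *MGP* over the 8 arrays were sought among 14476 genes well above background on every array, after each gene was centred on its own mean. *ID1* was closest to *PPM1N* (root mean square difference 0.111 on the log2 scale, r = 0.995), *GBP2* (0.253, r = 0.992) and *ZBTB46* (0.257, r = 0.971). *PPM1N* measured 2.27 and 2.29 in OVSAHO with simvastatin, 0.18 and 0.073 in OVSAHO with L-778123 and 2.59 to 2.66 in KURAMOCHI. *MGP* was closest to *BMF* (0.253, r = 0.994), *DSCAML1* (0.333, r = 0.981) and *GRIN2A* (0.431, r = 0.947). *BMF*, which encodes a BH3-only protein that promotes apoptosis, measured 2.75 and 2.71 in OVSAHO with simvastatin, -0.24 and -0.2 in OVSAHO with L-778123, 3.23 and 3.26 in KURAMOCHI with simvastatin and 0.33 and 0.35 in KURAMOCHI with L-778123. These correlations describe 8 arrays that fall into 4 groups.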

How the data were processed

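The labels group 8 arrays by cell line (OVSAHO, KURAMOCHI) and drug (simvastatin, L-778123). The authors extracted the scans with Feature Extraction 11.5.1.1 and deposited each spot's processed signal, a background-corrected intensity, together with a table of processed intensity on a linear scale, whose 75th percentile was 383 or 384 on every array and which had been quantile normalized.

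Control spots and 58 to 99 outlier spots per array were left out, spots of a probe were averaged, and the array's 75th percentile was subtracted from the log2 intensity. Of 58162 probes, 33753 were tested, those well above background on each array of 1 group or more. RefSeq accessions gave names to 24768 of 50096 identifiers, and 16955 genes had a tested probe. A fold change against a group not well above background is a lower bound, set by the lowest signal well above background. Comparisons were fitted with limma 3.58.1 in R 4.3.3 (1 mean per group, spread shared by the 4 groups, Benjamini-Hochberg adjustment over all tested probes), after a trial on simulated data. They were simvastatin against L-778123 in each line, the contrast of these differences, and OVSAHO against KURAMOCHI. Intensities carry no read counts, and the 2 arrays per group limit the precision. Plots used Python 3.11.15 and matplotlib 3.10.9.

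The 10 genes, the pathway and marker lists (ovarian serous carcinoma, fibroblast, leukocyte, endothelial) and the tests were chosen with earlier results of these data known. Beyond the 10 genes, those named are, from each pathway list, up to 2 per direction and line with the largest called drug difference, up to 2 with the largest called contrast between the lines, and the 3 genes closest to *ID1* and to *MGP*. The core SMADs, *TCF3*, *TCF4* and *GGCX* were added after their values were seen, to describe lists without a call. The alternatives were quantile normalization, the percentile over bright probes, normexp with an offset of 50 on the median spot intensity, other filters on dim probes, a floor, the authors' table, the compared groups alone, a replicate block, the methods' analysis of variance, other fold thresholds, the median over probes, and each array left out. With 1 slide, no slide term was fitted.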

Additional observations from a re-analysis of the deposited data

Results flagged for a closer look

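The drug difference (simvastatin minus L-778123) differed between the lines in the limma contrast, given as the OVSAHO value minus the KURAMOCHI value on the log2 scale. Among the 10 genes this was so for *ID3* at 1.76 (adjusted p = 0.000686), *SMAD6* at -1.47 (adjusted p = 0.000736) and *ID4* at -0.49 (adjusted p = 0.0173), the last under the fold threshold. Among the other pathway genes named, all of them well above background on all 8 arrays, it was so for the ligands *TGFB2* at 1.94, *BMP6* at -1.67 and *INHBB* at 1.04, the receptor *BMPR1B* at -1.12, and the target genes *CCN2* at -1.84, *BHLHE40* at 1.66, *TGM2* at -1.21 and *HEY1* at 1.17, all past the fold threshold. The adjusted p of these ranged from 0.000468 for *BMP6* to 0.0113 for *CCN2*. Under the fold threshold, like *ID4*, the named genes *JUNB* at 0.93 (adjusted p = 0.0018), *TCF4* at -0.89 (0.00187), *LEFTY1* at 0.63 (0.00623) and *GGCX* at -0.62 (0.0116) also had an adjusted p under 0.05. Over all genes tested, 27.4% had an adjusted p under 0.05 in this contrast, and 7.58% also passed the fold threshold. Except for *TGM2*, the pathway genes past the fold threshold met the naming rule through a called contrast. That they passed was therefore fixed by the rule. Groups of 2 arrays are too small to look for single arrays that stand apart.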

How the results depend on the processing

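The 40 log2 differences of the 10 genes were recomputed under 19 other settings, which gave 740 values, since the 20 differences that need all 4 groups have no value in a fit of the compared groups alone. Of these, 726 kept their direction and their side of the threshold (or, without a test, moved by less than the replicate spread), 6 moved further, 3 passed the threshold newly and 5 turned. Part of this agreement was fixed in advance. Other filters on dim probes, the compared groups alone, the replicate block and the analysis of variance can alter p-values, not log2 differences. A floor leaves the signals of these 10 genes unchanged, and an array left out cannot move the drug difference of the other line. The median over probes can change only genes with more than 1 probe. The values that turned were all of *BMP4*, whose differences did not pass the test: with normexp 0.045 in OVSAHO and 0.26 for the contrast between the lines, and for that contrast 0.21 without OVSAHO simvastatin replicate 1, 0.026 without OVSAHO L-778123 replicate 1 and 0.061 without KURAMOCHI L-778123 replicate 1 (range over arrays left out -0.27 to 0.21). The number of genes called in OVSAHO was 7 with no fold threshold in place of 4. In KURAMOCHI it was 2 with quantile normalization, 2 with the authors' table, 5 at a fold of 1.5 and 7 with no fold threshold, in place of 1, and the second gene under the first pair of settings was *ID4*. For the difference between OVSAHO and KURAMOCHI it was 7 at a fold of 1.5, with *SMAD6* added, and 10 with no fold threshold, in place of 6, *ID1* included. The count without *ID1*, 5 of 9, was not recomputed under other settings or with arrays left out. Leaving out each array gave 4 to 4 in OVSAHO, 1 to 2 in KURAMOCHI (2 without KURAMOCHI simvastatin replicate 2), 2 to 2 for the contrast and 6 to 6 between the lines. *ID1* in OVSAHO was 2.19 in place of 2.37 with quantile normalization and with the authors' table. Of the other pathway genes, 11 to 45 were called in OVSAHO (lowest with normexp) and 3 to 38 in KURAMOCHI, beside 18 and 10. Between the lines 27 to 74 were called beside 46 of the 82 tested, or 56.1%, where 34.8% of all genes were called. Some of the 46, such as *NOG*, *DLX5* and *ACVRL1*, entered the test only through the line where they were high. The lowest values in KURAMOCHI and between the lines came from probes well above background on all 8 arrays. The highest values came with no fold threshold. No scaling moved the median of all genes by over 0.1.

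Arrays with the same replicate number did not deviate together (correlations of 0.000848 to 0.0555 over 6 pairs of groups). The sources used here do not say what the number stands for, and these correlations cannot show whether cultures were paired. With the replicate block the genes called stayed at 4, 1, 2 and 6 in number, the last with *ID1* included. The probes called were 3688 in place of 3701 in OVSAHO, 1853 in place of 1888 in KURAMOCHI, 2310 in place of 2398 for the contrast and 11366 in place of 11368 between the lines. Dim signal limits *BMP4* and both *MGP* probes. The drug differences of the *MGP* probe read fell from 2.48 to 1.56 in OVSAHO and from 2.59 to 1.68 in KURAMOCHI with normexp.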
